A study of Mus musculus with 2 samples.

Results

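Cells counted as retinal microglia, the resident macrophages of the retina, were 84 of 8814 cells in 2 single-cell libraries. The libraries were made from the periphery of the mouse retina on postnatal day 8. A cell was counted as a member when it had at least 500 detected genes and at least 1 unique molecular identifier (UMI, a tag that marks 1 captured transcript) for at least 4 of 10 macrophage genes. These were C1qa, C1qb, C1qc, Tyrobp, Cx3cr1, Csf1r, Trem2, Laptm5, Ctss and Fcer1g. Since the members were chosen by the measured UMIs of these genes, their values for them describe the choice. Of the 84 members, 11 had only 4 to 7 of these markers, and most of the 11 were poor in other microglial genes. The library called DKO (genotype alphaCre, Rbf/f, p107-/-, described by the submitters as tumor-prone) held 37 members among 3620 cells. The library called DKO_Skp2het has the same alleles and, in addition, 1 lost copy of Skp2 (Skp2+/-, described as tumor-resistant), and held 47 members among 5194 cells. Both libraries thus lack p107 in every cell and carry the floxed Rb alleles, and neither is a wild-type control. The Cre-expressing peripheral area was dissected, so central retina was not sampled, and cells were released with papain at 37°C before droplet capture with a 3′ kit. The number of animals pooled per library is not given in the sources used here, and with 1 library per genotype no difference below has a replicate check or a test.

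Microglia are born in the yolk sac and settle the retina before its vessels and photoreceptors mature, so they are of another lineage than the retinal progenitors in which the alpha-Cre driver is known to act. In the developing retina they engulf dying neurons, prune synapses with the help of complement and digest what they take up in lysosomes. They depend on the receptor Csf1r and its ligands Il34 and Csf1, and they sense injury through purinergic receptors such as P2ry12. Resting cells are known for a set of "homeostatic" genes (P2ry12, Tmem119, Sall1), whereas cells that clear debris in the young brain and retina or around lesions are known for Apoe, Spp1, Gpnmb, Lpl, Igf1 and Itgax.

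The members were deep cells in both libraries. They held 318865 UMIs in DKO and 342696 in DKO_Skp2het. Their UMIs per cell ran from 3709 over a median of 8950 to 15369 in DKO, and from 2434 over 6359 to 16016 in DKO_Skp2het. The medians of all other cells were 4916 and 3862, so the DKO library was the deeper one for members and for other cells alike. Mitochondrial UMIs had a median of 4.39% in DKO members and 4.98% in DKO_Skp2het members, against 3.32% and 3.51% in other cells. In all, 30 cell barcodes occurred in both libraries, and none of the members' barcodes was among them. Skp2 itself was lower in DKO_Skp2het over all other cells, at 57.6 against 81.2 CPM (UMIs of a gene per 1000000 UMIs of the summed cells). In the members it had only 4 and 5 UMIs, which does not check the genotype within them. The 3′ tags of Rb1 and Rbl1 (p107) check neither deletion.

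Most members carried every marker, and 11 carried only 4 to 7. In DKO 30 and in DKO_Skp2het 39 members had all 10 markers, with 79 to 510 (median 246) and 57 to 583 (median 191) marker UMIs. A further 1 and 3 members had 8 or 9 markers, with 114 marker UMIs in DKO and 33, 48 and 38 in DKO_Skp2het. The remaining 11 members had 4 to 7 markers and only 5, 6, 7, 9, 11 and 18 marker UMIs in DKO and 6, 7, 8, 8 and 8 in DKO_Skp2het. Just outside the rule, the 5 cells with 3 markers had 3 marker UMIs each in DKO and 4 each in DKO_Skp2het. The distribution thus fell into a group with many marker UMIs and a tail that ran on without a gap into cells outside the rule.

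Most of the 11 members with 4 to 7 markers were poor in microglial genes that the rule did not use. Genes of core proliferation, a list of 26 genes of mitosis such as Mki67 and Top2a, made up 13071 CPM in the 6 DKO cells of this kind, above the 5853 CPM of all other DKO cells. In the 5 DKO_Skp2het cells they stood at 5405 CPM, against 4917 CPM in other cells. They were uneven from cell to cell, at 117, 120, 9, 173, 62 and 6 UMIs in the DKO cells and 8, 2, 27, 103 and 1 in the DKO_Skp2het cells, where 1 cell thus held 103 of 141. A single DKO_Skp2het member with 6 markers held 208 UMIs of rod photoreceptor genes such as Sag, Gngt1 and Pde6g. Homeostatic genes that the rule did not use were low in the 11 cells, at 2 to 25 UMIs per cell against 19 to 247 in the other members. A DKO cell among them differed from this picture, with 7 markers, 18 marker UMIs, 14 Ctsd UMIs, 11 cytokine and chemokine UMIs (8 of Ccl12) and only 6 core proliferation UMIs among 4157 UMIs. A doublet score removed 3 members, all with at least 8 markers, and none of these 11. Whether the 11 cells hold transcripts of another cell was not tested in any other way. Values are therefore given for all members and, where they differ, for the 73 members with at least 8 markers (31 in DKO, 42 in DKO_Skp2het), a limit chosen after the marker UMIs had been seen.

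**Figure D1:**
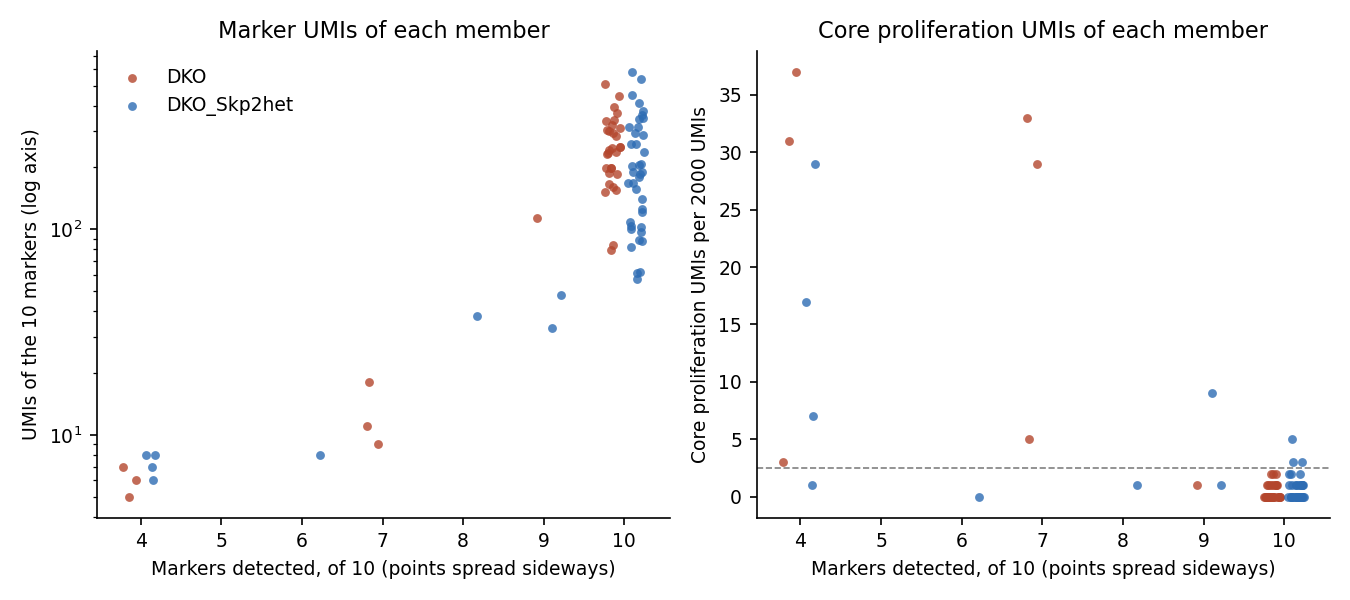
UMIs of the 10 marker genes (left, log axis) and core proliferation UMIs per 2000 UMIs (right) of each of the 84 members, by the number of markers detected, in DKO and DKO_Skp2het. Members with 4 to 7 markers hold 5 to 18 marker UMIs and up to 37 thinned proliferation UMIs, whereas members with 8 to 10 markers hold at least 33 marker UMIs and at most 9 thinned proliferation UMIs.

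The share of members was close to 1% in both genotypes. Members were 1.02% of DKO cells (exact 95% interval 0.721 to 1.41) and 0.905% of DKO_Skp2het cells (0.666 to 1.20). The ratio of the shares was 0.885, with an interval of 0.563 to 1.40 that covers counting error only and includes 1. With at least 8 markers the shares were 0.856% and 0.809%, a ratio of 0.944 (0.580 to 1.55). The libraries were not equally deep. When both were held to the DKO minimum of 3420 UMIs per cell, the shares were 1.02% and 1.16% and the ratio 1.13 (0.70 to 1.83), so the sign of the difference was not fixed by these counts.

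The 3 chains of C1q, the protein that opens the classical complement cascade and tags synapses and dying cells, were among the highest genes of the rule. C1qa stood at 3415 and 3709 CPM in members of DKO and DKO_Skp2het, and at 2.24 and 1.69 CPM in other cells. C1qb stood at 3873 and 3723 CPM and C1qc at 3788 and 3580.4 CPM. The 3 genes lie side by side on the minus strand of chromosome 4 (GRCm38, GENCODE release M21): C1qb at 136880129 to 136886187, C1qc at 136889804 to 136893065 and C1qa at 136895917 to 136898803. Tyrobp, the signalling adaptor of Trem2, was the highest of the 10 genes, at 4607 and 5687 CPM in DKO and DKO_Skp2het. Its partner Trem2, a lipid-sensing receptor, stood at 1480.2 and 1322 CPM. The fractalkine receptor Cx3cr1 stood at 2318 and 2203 CPM. Csf1r, the survival receptor, stood at 1317 and 1036 CPM and was detected in 30 of 37 (81.1%) and 43 of 47 (91.5%) members. Ctss, a lysosomal protease, Laptm5, a lysosomal membrane protein, and Fcer1g, the signalling chain of Fc receptors, stood between 1204 and 1576 CPM. CPM of 3′ tags count transcripts without regard to gene length. How well each gene was captured was not measured, so the order of these genes describes their UMIs only.

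UMIs of microglial genes were rare in other cells. C1qa had a UMI in 36 of 37 DKO members and 46 of 47 DKO_Skp2het members, and in 1.51% and 0.835% of other cells. P2ry12, which the rule did not use, had a UMI in 78.4% and 80.9% of members and in 0.0837% and 0.253% of other cells, at median depths of 8950 and 6359 against 4916 and 3862 UMIs.

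The upstream window of C1qc is shown because C1qc, like the other C1q genes, is a gene of the rule, and because it holds the letters GAGGAAGT, a site type known for the myeloid factor PU.1. The window covers the 250 bases before the RefSeq start of C1qc on GRCm38.p6, at chr4:136892915-136893164 on the minus strand, written in the direction of transcription. Capitals mark the match, which reads ACTTCCTC here because it lies on the opposite strand, 195 bases before the RefSeq start. The start of the GENCODE gene lies further upstream, at 136893065, inside this window.
C1qc: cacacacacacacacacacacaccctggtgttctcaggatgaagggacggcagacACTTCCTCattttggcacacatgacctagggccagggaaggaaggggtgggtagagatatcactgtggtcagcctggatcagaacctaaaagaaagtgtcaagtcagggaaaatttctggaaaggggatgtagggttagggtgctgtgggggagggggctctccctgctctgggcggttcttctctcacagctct
Both strands were searched in RefSeq windows from 250 bases before to 50 bases after each start. GAGGAAGT was in 3.20% of all 32817 windows and in 2 of the 7 rule genes with a window (C1qc and Ctss). A gene counted when any of its windows matched, so counts of genes and shares of single windows are unlike measures. The ETS-IRF composite element was in 2.72% of all windows and in none of the 7. A match describes letters in a window and is not a measured binding site. Spi1, the gene of PU.1, was itself expressed, at 267 and 333 CPM in members of DKO and DKO_Skp2het, with 0.166 and 0.275 CPM in other cells. Irf8, a partner of PU.1, stood at 326 and 333 CPM and Mef2c, another factor of microglia, at 289 and 254 CPM. Genes with at least 20 UMIs over the members were taken as measured, which 4222 genes were. Of the 17 myeloid transcription factors listed, 14 were measured, and none of the 14 had an interval of the ratio of DKO_Skp2het over DKO that excluded 1, where 4.81% of all measured genes lay above and 5.5% below.

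Outside the rule, Ctsd, Ctsb and Sepp1 were the leading genes of the members. Of the 4222 measured genes, 892 (21.1%) were at least 2-fold higher in the members than in all other cells on the scale of CPM plus 20, and 629 (14.9%) at least 2-fold lower. Ctsd, which encodes the aspartic protease cathepsin D, was the most abundant of the leading genes. In the 73 members with at least 8 markers it ran from 36.6 over a median of 98.8 to 495 UMIs per 10000 in DKO, and from 22.6 over 147 to 320.2 in DKO_Skp2het. Every one of these 73 cells had Ctsd, and the ranges of the libraries overlapped. Over all members Ctsd stood at 10917 and 15285 CPM, against 55.3 CPM in the other cells of each library. Ctsb, the cysteine protease cathepsin B, stood at 5005 and 6793 CPM against 57.3 and 64.7 CPM.

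The other leading genes had lower levels. Sepp1, a selenium carrier, stood at 3258 CPM in DKO members and 3729 CPM in DKO_Skp2het members. Grn, which encodes progranulin, stood at 1505 and 1835 CPM, and Lyz2, the macrophage lysozyme, at 1198 and 1173 CPM. Mpeg1, a pore-forming protein of phagosomes, stood at 866 and 1261 CPM (ratio 1.46, 1.25 to 1.70). The chemokine genes Ccl4 (1179 and 864 CPM) and Ccl3 (809 and 639 CPM) lie near each other on chromosome 11, at 83662584 to 83664683 and 83647844 to 83649355. Cd52 (1009.8 and 919 CPM), Aif1, the gene of the microglial stain IBA1 (834 and 931 CPM), Fcgr3, an IgG receptor (806 and 791 CPM), Trf, the iron carrier (853 and 983 CPM), and Arsb, a lysosomal sulfatase (903 and 855 CPM), had ratio intervals that included 1.

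**Figure D2:**
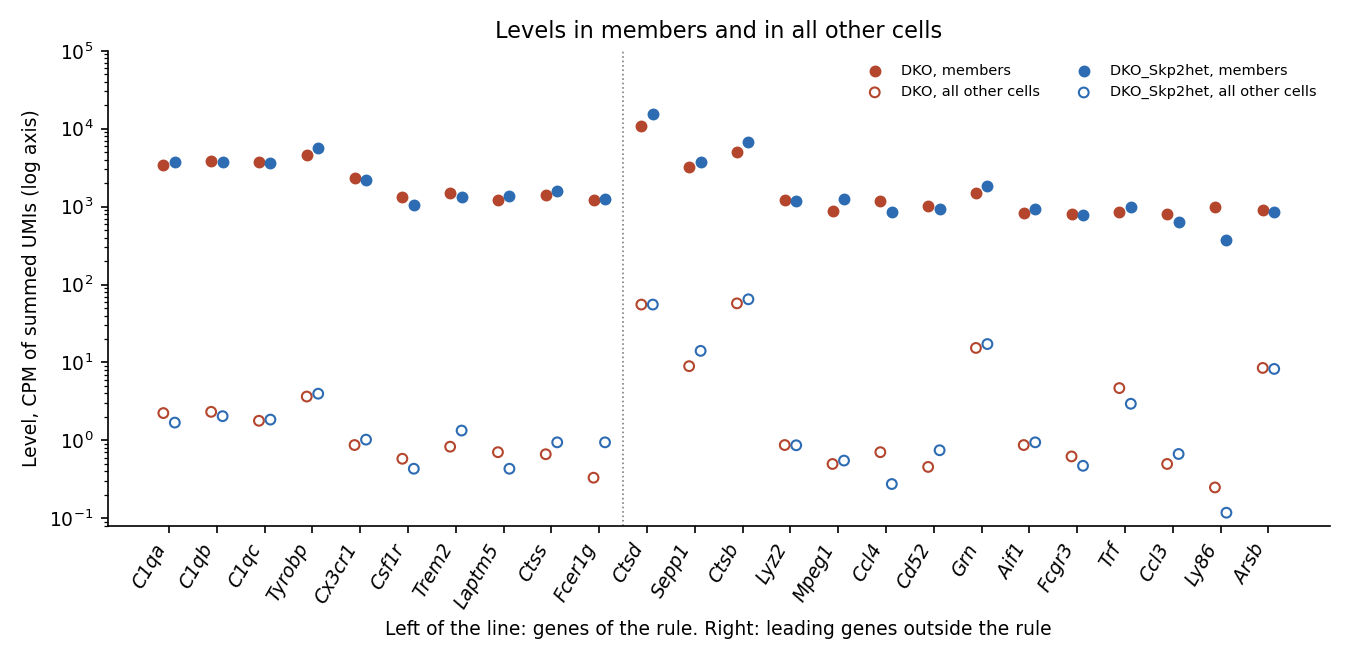
Levels (CPM of summed UMIs, log axis) of the 10 genes of the rule and of leading genes outside it, in members (filled) and in all other cells (open) of each library. Members lie above other cells for every gene shown, and Ctsd is the highest at 10917 and 15285 CPM.

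Ly86 was the leading gene that differed most between the libraries. Ly86 encodes MD-1, the partner of the toll-like receptor homologue RP105. In members with at least 8 markers it ran from 0.995 over a median of 9.25 to 25.8 UMIs per 10000 in DKO, and from 0 over 2.97 to 22.4 in DKO_Skp2het. It was detected in all 31 of these DKO cells and in 33 of the 42 DKO_Skp2het cells, so the medians differed while the ranges overlapped. Over all members it had 318 UMIs (997 CPM) in DKO and 127 (371 CPM) in DKO_Skp2het, a ratio of 0.372 (0.300 to 0.458). Other cells held 6 and 3 UMIs of Ly86.

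Homeostatic genes were present in members of both libraries, and as a list they stood at like levels. Of 24 such genes in the files, 22 were measured. Thinned to 2000 UMIs, a member held 25 homeostatic UMIs at the median of both libraries together. The median was 24 in DKO (lowest 1, highest 82) and 25 in DKO_Skp2het (1 to 86). The low ends were the members with few markers: with at least 8 markers the counts were 26 (5 to 82) and 25.5 (8 to 86). Every member with at least 8 markers thus carried transcripts of this list. So did 6489 of the 8730 other cells, at a median of 1 and a highest count of 177 thinned UMIs. Carrying such transcripts therefore does not by itself mark a homeostatic cell. Between the libraries 10 of the 22 genes were above and 12 below equal CPM, with a median log2 difference of -0.04 against 0.03 over all measured genes, and none was past 2-fold, against 0.924% of all genes in each direction.

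Single homeostatic genes were mostly within counting error of each other. P2ry12, the purinergic receptor that steers microglial processes towards injury, had 127 UMIs in DKO (398 CPM) and 171 in DKO_Skp2het (499 CPM), a ratio of 1.25 (0.990 to 1.59). Sall1, a transcription factor that holds microglial identity, stood at 194 and 184 CPM and was detected in 27 members of each library. Gpr34, a lysophospholipid receptor, stood at 420.2 and 403 CPM. Tmem119, which distinguishes adult microglia from other macrophages, was sparse, with 18 UMIs in 13 DKO members and 24 UMIs in 14 DKO_Skp2het members. Siglech, a sialic acid receptor, had 9 and 12 UMIs, and the glucose or fructose carrier gene Slc2a5 had none. Other cells held no UMI of Tmem119, Siglech or the purinergic receptor P2ry13. Against a floor of 3 counts over all other cells, these 3 genes were at least 1048-fold, 524-fold and 1097-fold higher in members.

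For 3 of the 22 measured genes of the list the ratio interval lay above 1 and for 3 below. These are larger shares than the 4.81% and 5.5% of all measured genes. Fcrls, an Fc receptor-like surface gene of microglia, was lower in DKO_Skp2het, with 93 UMIs in 25 members (271 CPM) against 148 UMIs in 30 members (464 CPM) and a ratio of 0.585 (0.446 to 0.763). Ltc4s, an enzyme of leukotriene synthesis, had a ratio of 0.503 (0.277 to 0.889), and Sparc, a secreted matrix-binding protein, stood at 1828 and 1497 CPM (0.819, 0.726 to 0.923). Cd33, an inhibitory sialic acid receptor, was higher at 1.64 (1.06 to 2.58, but 0.943 to 2.35 without the member with 8 of its UMIs), Rhob, a small GTPase, at 1.47 (1.14 to 1.91) and Cst3, the cystatin C gene, at 1.19 (1.11 to 1.28). Cst3 was also higher in other DKO_Skp2het cells, at 762 against 619 CPM. In other cells of both libraries Fcrls, Ltc4s and Cd33 had at most 6 UMIs per library, too few to compare.

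Genes of the phagocytic and lipid-handling state were high in members of both libraries. A member held 76 thinned UMIs of this list at the median, 67 in DKO (4 to 304) and 84 in DKO_Skp2het (1 to 218). With at least 8 markers the values were 73 (37 to 304) and 90.5 (31 to 218). The lowest of these members thus exceeded the median homeostatic count. The lists differ in the number and level of their genes, with Apoe and Ctsd on the phagocytic list. Comparing their counts therefore does not show which state prevailed in a cell. Apoe, the lipid carrier, stood at 9399 and 10756 CPM, next to Ctsd. Apoe is also a gene of Müller glia, and other cells held 687 and 907 CPM, so members stood 12.6-fold above them. Of 33 listed genes in the files, 30 were measured. Fabp5, a fatty acid carrier, stood at 935 and 1138 CPM in members and at 975 and 915 CPM in other cells.

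The markers by which debris-clearing microglia are usually known were unevenly spread over the members. Spp1 (osteopontin) had 94 UMIs in 16 DKO members and 72 in 21 DKO_Skp2het members, of which 39 lay in a single DKO cell. Gpnmb, a lysosomal and surface glycoprotein, had 14 UMIs in 6 DKO members and 60 in 6 DKO_Skp2het members, with 24 in 1 cell. Its ratio of 3.99 (2.2 to 7.73) treats the UMIs of 1 cell as independent, and the same number of cells carried the gene in each library. Without the cell with 24 UMIs it was 2.48 (1.31 to 4.98). Itgax (CD11c) had 30 UMIs in 16 and 27 UMIs in 15 members. The DKO cell with 39 Spp1 UMIs also had the highest count of the whole list, 304 thinned UMIs, together with 249 lysosomal and 82 homeostatic UMIs. These 82 were the most of any DKO member, so high phagocytic and high homeostatic counts stood in 1 cell.

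Igf1 and Lpl differed in opposite directions between the libraries. Igf1, a growth factor that microglia supply to developing neurons, ran from 0 over a median of 3.67 to 14.4 UMIs per 10000 in DKO members with at least 8 markers, and from 0 over 7.03 to 26.8 in DKO_Skp2het members. It was detected in 26 and 39 of these cells, and its sums of 118 and 222 UMIs gave 370.1 and 648 CPM, a ratio of 1.75 (1.39 to 2.21). Lpl, the lipoprotein lipase gene, ran from 0 over 3.49 to 27.0 in DKO and from 0 over 0 to 27.6 in DKO_Skp2het. The median DKO_Skp2het cell thus had no Lpl UMI, although the highest cells of both libraries were alike. The sums were 167 and 87 UMIs (524 and 254 CPM, ratio 0.485, 0.370 to 0.632). In other cells Lpl was also lower in DKO_Skp2het, at 16.2 against 24.0 CPM, whereas Igf1 stood at 3.70 and 4.64 CPM. Whether members and other cells differ in these ratios was not tested.

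Over the list, 17 of the 30 measured genes were above and 13 below equal CPM in DKO_Skp2het. The ratio interval lay above 1 for 12 and below 1 for 5, against 4.81% and 5.5% of all measured genes. Besides Igf1 and Gpnmb, the genes above were led by Plin2, which coats lipid droplets (ratio 1.80, 1.25 to 2.63), and Pld3, a lysosomal nuclease (1.70, 1.26 to 2.31). Lgals1 (galectin 1) had a ratio of 1.46 in members and 1.40 in other cells. Cd68, the lysosomal macrophage marker, stood at 361 and 511 CPM (1.42, 1.11 to 1.81), and its interval was 0.949 to 1.57 without the member with 30 of its UMIs. Below 1 were Lpl, Spp1, Cst7, a cystatin of activated microglia (702 and 522 CPM, 0.744, 0.607 to 0.909), Ccl3 and Ccl4. For Spp1 the direction turned with 1 cell, from a ratio of 0.713 (0.517 to 0.979) to 1.20 (0.830 to 1.73) without the DKO member with 39 UMIs. Those of Ccl3 and Ccl4 turned likewise without the DKO member with the most cytokine UMIs, to 1.05 (0.857 to 1.28) and 1.31 (1.09 to 1.57). Without that member 20 of 29 measured genes of the list were above and 9 below equal CPM, with a median log2 difference of 0.36, 13 intervals above 1 and 3 below.

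**Figure D3:**
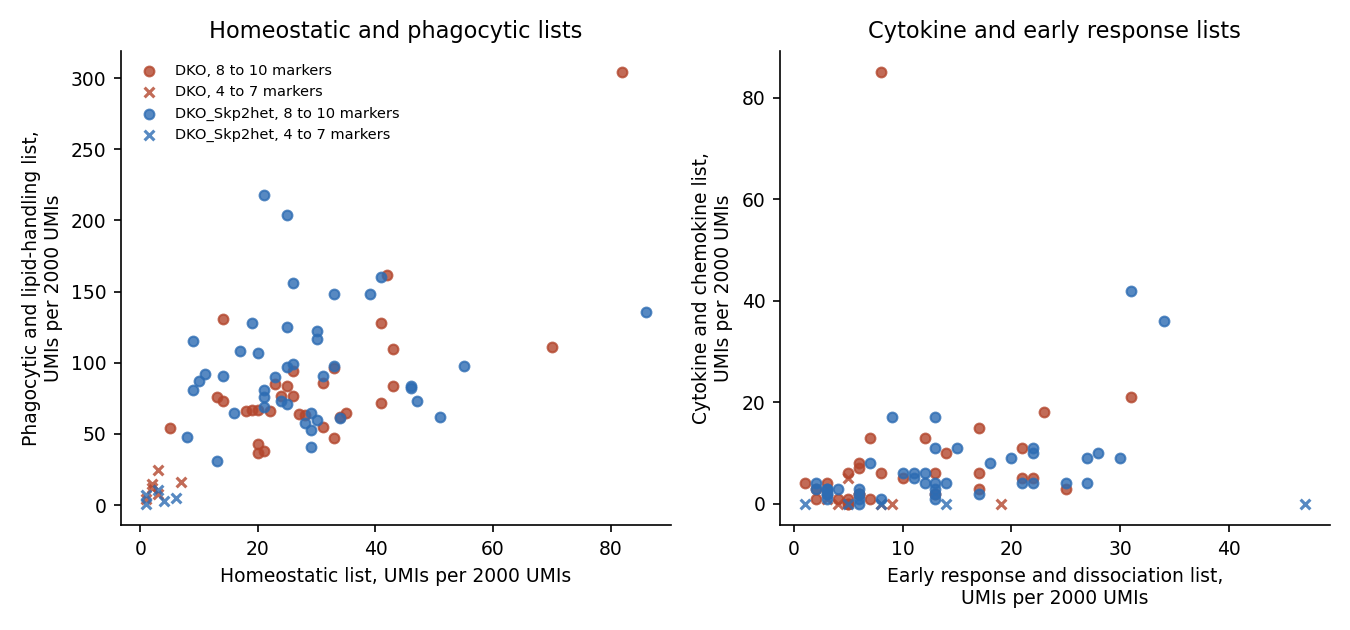
Each point is 1 member, as UMIs per 2000 UMIs: homeostatic against phagocytic and lipid-handling list (left), and early response and dissociation against cytokine and chemokine list (right), with symbols for members with 4 to 7 and with 8 to 10 markers. Members with few markers sit at the lower left of the left panel, and the highest point of each panel is a DKO cell, at 304 phagocytic and 85 cytokine UMIs.

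Lysosomal genes were higher in DKO_Skp2het more often than lower. Of 43 genes, 40 were measured. The list shares 5 genes with the phagocytic and lipid-handling list, Ctsd among them, so the differences of the 2 lists are not separate. Between the libraries 32 of the 40 were above and 8 below equal CPM, with a median log2 difference of 0.27 against 0.03 over all genes. For 13 genes the ratio interval lay above 1 and for none below, where 4.81% and 5.5% of all measured genes did. In the 73 members with at least 8 markers, 30 genes were above and 10 below, with 12 intervals above 1 and none below, against 5.19% and 5.13% of the 3683 genes measured in these members. Per member, the thinned counts were 70 at the median in DKO (2 to 249) and 89 in DKO_Skp2het (2 to 176). The highest single member was thus a DKO cell, although the median was higher in DKO_Skp2het.

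Several lysosomal proteases and membrane proteins were above equal CPM in DKO_Skp2het. The ratio was 1.40 (1.34 to 1.46) for Ctsd, 1.36 (1.27 to 1.45) for Ctsb, 1.42 (1.12 to 1.82) for Ctsh and 1.26 (1.10 to 1.44) for Lgmn, an asparagine-specific protease. Lamp1, which lines the lysosomal membrane, stood at 1157 and 1602 CPM (1.38, 1.21 to 1.58), and Psap, the precursor of the saposins that present lipids to hydrolases, at 2594 and 3143 CPM (1.21, 1.11 to 1.33). Ctsz (1909.9 and 1879 CPM) and the cholesterol carrier Npc2 (1778 and 1853 CPM) stood near equal. In other cells Ctsd had a ratio of 1.00, Ctsb 1.13, Lgmn 1.06, Lamp1 1.07 and Psap 1.14.

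Man2b1, lysosomal alpha-mannosidase, differed most within the list. Its per-cell values ran from 0 over a median of 2.06 to 11.8 UMIs per 10000 in DKO members with at least 8 markers, and from 0 over 4.47 to 67.1 in DKO_Skp2het members. It was detected in 24 of 31 and 40 of 42 of these cells. Over all members, 84 and 232 UMIs (263 and 677 CPM) gave a ratio of 2.57 (1.99 to 3.34), while other cells stood at 4.98 and 4.88 CPM. Npc1, which moves cholesterol out of lysosomes, had 22 and 52 UMIs, a ratio of 2.2 (1.31 to 3.80), and 11 and 12.9 CPM in other cells.

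Lysosomal genes are known to share the letters TCACGTGA, an E-box bound by factors of the TFEB family, and the 250 bases before the RefSeq start of Ctsd hold it. The window lies at chr7:142387828-142388077 on the minus strand of GRCm38.p6, and the capitals mark the E-box, 99 bases before the RefSeq start. The GENCODE gene starts further upstream, at 142388038, so the E-box lies inside that gene.
Ctsd: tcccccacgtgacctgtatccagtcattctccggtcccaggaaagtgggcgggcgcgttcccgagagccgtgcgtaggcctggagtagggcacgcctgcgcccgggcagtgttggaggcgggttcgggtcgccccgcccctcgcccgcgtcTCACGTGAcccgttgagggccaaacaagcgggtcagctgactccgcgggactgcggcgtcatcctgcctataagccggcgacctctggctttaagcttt
The same letters occurred in the windows of 5 other genes of the list, shown as 28 bases in the direction of transcription with the E-box in capitals. They lie at chr2:164833750-164833777 on the plus strand for Ctsa, at chr8:105566051-105566078 on the minus strand for Atp6v0d1, and at chr16:44139374-44139401 on the minus strand for Atp6v1a. Those of Mcoln1 and Cd164 lie on the plus strand at chr8:3500463-3500490 and chr10:41519402-41519429. Ctsa has a second match at chr2:164833767-164833794.
Ctsa: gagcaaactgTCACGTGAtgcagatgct
Ctsa, second match: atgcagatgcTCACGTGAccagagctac
Atp6v0d1: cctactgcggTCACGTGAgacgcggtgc
Atp6v1a: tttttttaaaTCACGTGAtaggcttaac
Mcoln1: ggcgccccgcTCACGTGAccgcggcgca
Cd164: gccgggctgcTCACGTGAccggcgcgcg
These were 6 of the 33 lysosomal genes with a window (18.2%), against 0.975% of all windows, and TCACGTGA reads the same on both strands. Here too a gene counted when any of its windows matched, whereas the share over all windows counts single windows. Apart from Ctsd, their own differences were small or uncertain. Ctsa, protective protein of neuraminidase, had a ratio of 1.16 (0.967 to 1.40), and the proton pump subunits Atp6v0d1 and Atp6v1a had 1.17 (0.783 to 1.77) and 1.43 (0.95 to 2.17). The sialomucin gene Cd164 had 1.30 (0.777 to 2.19), and the calcium channel gene Mcoln1 had 5 and 6 UMIs. Of the genes with the largest lysosomal differences, Man2b1 and Npc1 were not among the 6.

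Engulfment receptors and adaptors lay on both sides of equal CPM. Of 31 receptors and adaptors, 25 were measured, 13 above and 12 below equal CPM, with a median log2 difference of 0.02. Their summed UMIs had a ratio of 1.08 (1.01 to 1.15), and the difference from the lysosomal list was not tested. Mertk, which binds the eat-me signal phosphatidylserine through bridging proteins, stood at 116 and 87.5 CPM (ratio 0.754, 0.450 to 1.25), and its relative Axl at 223 and 201 CPM. Fcgr1, the high-affinity IgG receptor, stood at 314 and 347 CPM. The one interval above 1 belonged to Cyba, a subunit of the phagosomal NADPH oxidase (756 and 951 CPM, 1.26, 1.06 to 1.49), and it was 1.15 (0.962 to 1.37) without the member with 40 of its UMIs. Its catalytic partner Cybb had too few UMIs to be measured, 2 in 2 DKO members and 14 in 9 DKO_Skp2het members. Msr1, a scavenger receptor, had 1 UMI in DKO and 18 in 7 DKO_Skp2het members. Thinned engulfment counts had a median of 13 in both libraries.

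**Figure D4:**
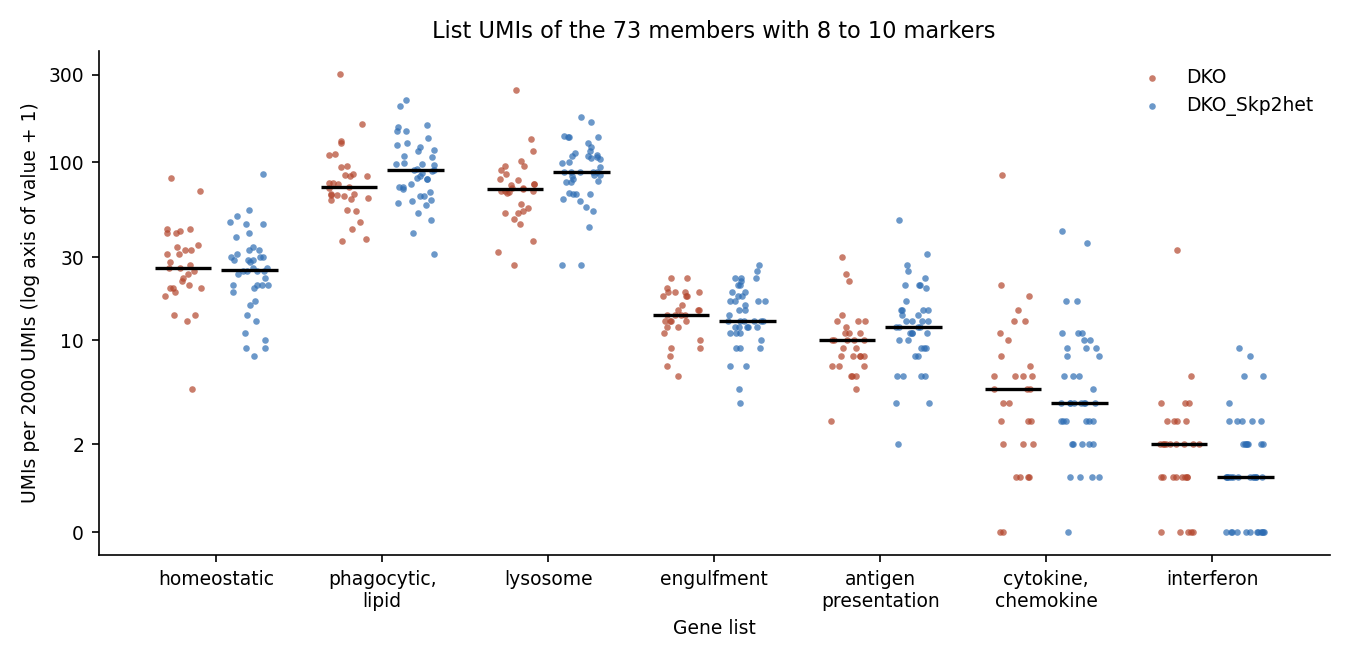
UMIs per 2000 UMIs (log axis of value plus 1) of 7 gene lists in each of the 73 members with 8 to 10 markers, by library. The lists overlap between DKO and DKO_Skp2het throughout, with the phagocytic and lysosomal lists centred higher in DKO_Skp2het (90.5 against 73, and 89 against 71 UMIs) and 1 DKO cell far above the rest in cytokine (85) and interferon (33) UMIs. The phagocytic and lysosomal lists have 5 genes in common, Ctsd among them.

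Few members reached the limit set here for dividing cells, which counts transcripts and does not measure division itself. With 3 or more core proliferation UMIs per 2000 UMIs as the limit, 13 of 84 members counted as dividing (15.5%, 8.51 to 25.0). They were 6 of 37 in DKO (16.2%) and 7 of 47 in DKO_Skp2het (14.9%). All other cells, measured the same way, stood at 56.0%, with 62.5% in DKO and 51.4% in DKO_Skp2het. Of the 13, however, 9 were among the 11 members with 4 to 7 markers. Among the members with at least 8 markers 4 of 73 counted as dividing (5.48%, 1.51 to 13.4). These were 0 of 31 in DKO, where the exact interval reaches 11.2%, and 4 of 42 in DKO_Skp2het (9.52%, 2.66 to 22.6). The difference between the libraries was not tested. Without thinning, 34.5% of members and 69.2% of other cells passed the limit. Of the 73 members with at least 8 markers, 47 also held a UMI of a rod gene. Whether proliferation UMIs in members came from other cells was not tested.

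The 4 members with many markers that passed the limit were DKO_Skp2het cells with 33, 126, 191 and 583 marker UMIs. They held 11, 5, 11 and 27 core proliferation UMIs before thinning and 9, 3, 3 and 5 after it. Those with 126 and 191 marker UMIs had 8307 and 8767 UMIs in all and stood at the limit of 3 after thinning. Whether these cells counted as dividing therefore turned on the random draw. The cell with 27 had 13334 UMIs in all, 5 of them for Birc5 (survivin), and all 10 markers. A further DKO_Skp2het member with 10 markers held 34 UMIs of S phase genes, the most of any member. Summed over members with at least 8 markers, core proliferation genes had 53 UMIs in DKO and 125 in DKO_Skp2het, or 188 and 395 CPM against 5853 and 4917 CPM in other cells, and a ratio of 2.10 (1.51 to 2.95). Over all members the sums were 540 and 266 UMIs and the ratio 0.458 (0.394 to 0.532). The direction therefore turned with the 11 members with 4 to 7 markers, which held 487 and 141 of these UMIs.

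The same 11 cells carried many of the largest library differences over all members. Tubb4b, a tubulin, had 79 UMIs in DKO and 17 in DKO_Skp2het (ratio 0.20), but 2.13 with at least 8 markers. Ube2c, an enzyme of mitotic exit, went from 0.325 to 2.67, and Hmgb2, a chromatin protein of dividing cells, from 0.310 to 0.907. The rod genes Gngt1 and Pde6g, with ratios of 6.10 and 3.41, went to 0.445 and 0.623, and 54 of the 59 Gngt1 UMIs in DKO_Skp2het lay in the single member with 208 rod UMIs. Meg3, a long non-coding RNA, went from 0.205 to 0.445, H1fx, a linker histone, from 0.326 to 0.647, Ndufa4l2, a mitochondrial subunit, from 0.276 to 0.889, and Cyr61, an early response gene, from 2.95 to 1.56.

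Summed cytokine and chemokine UMIs were lower in DKO_Skp2het (1343 and 940 UMIs, ratio 0.651, 0.599 to 0.708), and most of this lay in 1 DKO cell. The thinned counts had a median of 4 per member in DKO and 4 in DKO_Skp2het. Of 24 genes 14 were measured, 12 below and 2 above equal CPM, with a median log2 difference of -0.37. A DKO member with 10 markers and 10938 UMIs held 467 cytokine and chemokine UMIs, against medians of 13 in DKO and 14 in DKO_Skp2het. It also held 195 interferon response UMIs. Without this cell, 6 genes were above and 8 below, with a median of -0.13. Ccl7 had 87 UMIs in 4 DKO members, 66 of them in this cell, and none in DKO_Skp2het. Against a floor of 3 counts it was at least 31.2-fold lower there, a bound that includes the UMIs of this cell. Without the cell 21 UMIs were left in DKO, and the interval of the ratio ran from 0 to 0.173. Cxcl10, an interferon-induced chemokine, had 75 and 17 UMIs (ratio 0.211, 0.117 to 0.361) and a ratio of 1.09 without that cell. Ccl4 went from 0.732 (0.627 to 0.855) to 1.31 (1.09 to 1.57) and Ccl3 from 0.790 to 1.05.

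Chemokines outside that cell were spread thinly. Ccl2, which recruits monocytes, had 103 UMIs in 12 DKO members and 47 in 19 DKO_Skp2het members, a ratio of 0.425 (0.294 to 0.605) and 0.459 (0.316 to 0.659) without the cell. Ccl12 had 125 UMIs in 14 and 54 in 20 members, with 78 in 1 DKO cell. The inflammatory cytokines were rare. Il1a had 38 and 35 UMIs, Tnf 39 and 30, Il1b 25 and 16, and Il6 1 and 0. Il10 had none. Early response genes, which papain digestion at 37°C is known to induce, had thinned medians of 8 UMIs in DKO and 13 in DKO_Skp2het. Over the 84 members their counts ranked with those of the cytokines (Spearman correlation 0.47, and 0.55 over the 73 with at least 8 markers), cells of a library sharing their preparation. Their part in the cytokine values was not tested.

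Interferon genes were sparse, and genes of antigen presentation by MHC class I were higher in DKO_Skp2het. Of 27 interferon genes 9 were measured. Rsad2 (viperin) had 69 UMIs in a single DKO member, the cell with the most cytokine UMIs, and 1 in DKO_Skp2het, and Ifit1 had 18 and 1. Bst2 (tetherin) had a ratio of 1.86 (1.08 to 3.31) and Ly6e 0.644 (0.470 to 0.878). Of 18 antigen presentation genes 12 were measured, 10 above and 2 below equal CPM, with a median log2 difference of 0.33 against 0.03 over all measured genes. Of the 12, 4 had intervals above 1 and none below, against 4.81% and 5.5% of all measured genes.

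The class I genes carried this difference. H2-K1 ran from 0 over a median of 1.72 to 15.2 UMIs per 10000 in DKO members with at least 8 markers, and from 0 over 4.59 to 27.9 in DKO_Skp2het members. Its sums of 83 and 204 UMIs (260.3 and 595 CPM) gave a ratio of 2.29 (1.76 to 2.99). H2-D1 stood at 624 and 1094 CPM (1.75, 1.47 to 2.09), B2m, the class I light chain, at 3083 and 4120.3 CPM (1.34, 1.23 to 1.45), and the immunoproteasome subunit Psmb8 at 132 and 219 CPM (1.66, 1.12 to 2.49). Other cells were also higher in DKO_Skp2het, with ratios of 1.40 for H2-K1, 1.32 for H2-D1 and 1.41 for B2m. H2-K1 and H2-D1 are near-identical in parts and their counts could be split between them, so their separate ratios are uncertain. MHC class II was nearly absent, with 7 and 16 UMIs of Cd74 and 0 and 2 of H2-Aa.

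Among other receptors, Tgfbr2 and Il4ra were higher and Lag3 lower in DKO_Skp2het, and complement receptors had intervals that included 1. Of 25 microglial receptors 21 were measured, 9 above and 12 below equal CPM, with a median log2 difference of -0.12. The ratio interval lay above 1 for 1 gene and below 1 for 2, against 4.81% and 5.5% of all measured genes. The summed UMIs of this list had a ratio of 0.942 (0.892 to 0.995). C3ar1 had 65 and 81 UMIs and C5ar1 22 and 37, while C3 itself had 3 and 1. Tgfbr2, through which the growth factor keeps microglia homeostatic, had 31 UMIs in 22 DKO members and 73 in 27 DKO_Skp2het members (97.2 and 213 CPM, ratio 2.19, 1.42 to 3.45). Its ligand gene Tgfb1 stood at 213 and 175 CPM in members. Il4ra, a receptor chain for interleukin 4, is not on this list and was named for its large library difference. It had 12 UMIs in 10 and 45 in 25 members (3.49, 1.82 to 7.25). Rexo2, a mitochondrial oligoribonuclease, had 23 and 90 UMIs (3.64, 2.28 to 6.03) and a ratio of 1.36 in other cells. Pdgfb had 11 and 30 UMIs (2.54, 1.24 to 5.61, but 0.945 to 4.58 without the member with 7), and Lag3, an inhibitory receptor, was lower with 80 and 47 UMIs (0.547, 0.373 to 0.793).

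Markers of other myeloid cells were mostly scarce. The list of perivascular and border macrophages still had a UMI in 42 of 84 members. It stood at 169 and 204 CPM in members of DKO and DKO_Skp2het, against 1.95 and 2.05 CPM in other cells. For perivascular and border macrophages, members had no UMI of Cd163, Lyve1 or F13a1, 2 and 3 of Mrc1, and 0 and 1 of Pf4. Stab1, which is on the same list, had 41 UMIs in 19 DKO members and 44 in 21 DKO_Skp2het members. Ms4a7 had 1 UMI in DKO and 20 in DKO_Skp2het, in 5 members with 8, 6, 4, 1 and 1 UMIs. The first of these had 10 markers and no P2ry12, and the next 2 had 1 P2ry12 UMI each and 5 and 24 Gpnmb UMIs. Whether these cells are microglia or border macrophages was not tested. The dendritic cell list had 14 UMIs in 11 DKO members and 30 in 12 DKO_Skp2het members, a ratio of 1.99 (1.03 to 4.07), with the most, 7 UMIs, in the member with 8 Ms4a7 UMIs. Lists of monocytes (3 and 2 UMIs), neutrophils (8 and 0), lymphocytes (0 and 3) and pericytes (0 and 1) were at or near 0 in members. Müller glia genes had 396 and 385 UMIs over all members, at 1242 and 1123 CPM against 602 and 736 CPM in other cells. The 4 measured genes of this list did not go the same way. Glul and Slc1a3 were at least 2-fold higher in members than in other cells, and Rlbp1 and Dkk3 at least 2-fold lower.

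Across the 4222 measured genes, 39 were at least 2-fold higher and 39 at least 2-fold lower in DKO_Skp2het, 0.924% in each direction and 1.85% in all. With at least 8 markers these were 38 (1.03%) and 23 (0.624%) of 3683 genes. Of the 8 genes named per direction, those with at least 50 UMIs and the largest differences, Gpnmb, Rexo2, Il4ra, Man2b1 and H2-K1 kept a ratio above 2 with at least 8 markers. Of those lower, Ccl7, Rsad2, Cxcl10 and Meg3 stayed more than 2-fold lower, and a single DKO cell held 66, 69 and 61 UMIs of the first 3. The plot of ratios shows these genes beside the homeostatic ones.

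Counts of the state lists were also set against each other, cell by cell. Over the 73 members with at least 8 markers, homeostatic and phagocytic counts had a Spearman correlation of 0.21 (0.41 in DKO, 0.11 in DKO_Skp2het). Over all 84 members it was 0.48, the members with few markers being low in both. Phagocytic and lysosomal counts, taken without the 5 genes that the lists share, had a correlation of 0.57 over the 73 and 0.71 over the 84. Phagocytic and early response counts had -0.28 and -0.14. Cells of 1 library share their animals and handling, and these values describe the cells at hand.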

How the data were processed

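Deposited UMI counts of 2 droplet 3′ libraries were used as the authors deposited them. Cell Ranger 2.2.0 and build mm10 are named per the submitters' processing notes. The authors' barcode filter is not given in the sources used here. Barcodes with at least 500 genes were kept (3 removed), and the number of table columns belonging to other samples was 0. Members, gene lists and comparisons were chosen with earlier results of these data known. UMIs were summed over members and over other cells and given as CPM. Differences are log2 of CPM plus 20, which understates those of low genes, and 2-fold or more counted as called. Named genes are those of the rule, the 15 leading genes with at least 100 UMIs, up to 8 genes per direction between libraries with at least 50 UMIs, and, of each list, genes with the most UMIs or the largest difference. State counts are UMIs of a list after random thinning of each cell to 2000 UMIs. Shares carry exact Clopper-Pearson and ratios exact conditional 95% intervals. They cover counting error only and treat UMIs of 1 cell as independent. A Scrublet-type score (0.8% per 1000 barcodes) removed 105 and 216 barcodes in an alternative. Scripts, checked on simulated counts, ran in Python 3.11.15 with scikit-learn 1.9.0, pandas 2.3.3, scipy 1.17.1, numpy 2.4.6 and matplotlib 3.10.9. Coordinates are from GENCODE M21 and sequences from RefSeq (GRCm38.p6). A few named genes are not reported here.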

Additional observations from a re-analysis of the deposited data

How the results depend on the processing

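Of the values that answer a comparison, 74 stayed within their counting interval or within 1.5 times the stated count under the alternatives, and 15 did not. The share of members counted as dividing, 15.5%, was 34.5% without thinning and 5.48% with at least 8 markers. The 39 genes 2-fold higher and 39 lower in DKO_Skp2het became 111 and 97 with a pseudocount of 5 CPM, 11 and 19 with 50 CPM, 71 and 73 with a minimum of 10 UMIs, and 15 and 20 with a minimum of 50 UMIs. With each cell given the same weight 61 were higher, and with at least 8 markers 23 were lower. Against other cells, the 892 genes higher became 533 with a pseudocount of 50 CPM and 555 with a minimum of 50 UMIs, where the 629 lower became 256. The pseudocount and the minimum act on low genes by construction; for the equal weights the cause was not tested. The ratio of shares ran from 0.881 to 1.13 over its alternatives.

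Of values for single genes and lists, 462 held, 32 moved and 13 turned. With at least 8 markers the log2 difference of Tubb4b became 0.62, Ube2c 0.66, Gngt1 -0.57 and Pde6g -0.50. Without the DKO member with the most cytokine UMIs, Rsad2 became 0.20, Cxcl10 0.088 and Ccl12 0.041. Without the member with the most UMIs of the gene named, Gngt1 became -0.47, Pde6g -0.48 and Spp1 0.23, with Rsad2, Cxcl10 and Ccl12 as before. These alternatives were chosen after seeing the data. With members thinned to 2000 UMIs, the log2 difference of Gpnmb was 0.65 and of Rexo2 0.93, and the cause was not tested.

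No paired analysis was possible because each genotype has 1 library and the labels give no replicate numbers. The main limit is the number of cells: 37 and 47 members from an unstated number of animals, with the genotype and everything else that differs between the libraries, depth included, not to be told apart.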

Other observations

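Ligands of microglial receptors were measured in the cells around the members. Il34, a ligand of Csf1r, had 8 UMIs in DKO and 7 in DKO_Skp2het over all other cells and none in members. Csf1, the second ligand, had 51 and 84 UMIs in other cells and 22 and 25 in members, at 2.12 and 3.31 CPM against 69 and 73 CPM. Cx3cl1, the ligand of Cx3cr1, had 63 and 36 UMIs in other cells and none in members. Tgfb2 had 1495 and 1905 UMIs in other cells, the don't-eat-me signal Cd47 2782 and 2862, and Cd200, which restrains microglia through its receptor, 547 and 431.

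No member held a UMI of Xist, and 26 of 37 DKO members and 38 of 47 DKO_Skp2het members held a UMI of a Y-linked gene. Among other cells, Xist without a Y-linked gene was seen in 4 and 2 cells, and a Y-linked gene without Xist in 2410 and 2976.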
